A study of Mus musculus with 6 samples.

Results

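The aminoacyl-tRNA synthetases were followed in mouse macrophages that lack the epidermal fatty-acid-binding protein E-FABP, beside wild-type macrophages. The 36 genes listed, 20 for cytosolic enzymes and 16 for mitochondrial ones, were found by their gene symbols. A probe set was found for 35 of them among 18193 genes measured, 19 cytosolic and 16 mitochondrial. Dars, for cytosolic aspartyl-tRNA synthetase, had no probe set under the rule and was not analysed here. The knockout group was 3 cultures of macrophages from E-FABP knockout mice and the wild-type group 3 cultures from wild-type mice, with the strain given as C57BL/6 for both and an age of 6 to 8 weeks. In both groups bone marrow cells had grown for 7 days with 20 ng/ml GM-CSF, a growth factor for macrophages and dendritic cells, and had then shared medium for 18 h with a tumour line kept in an insert, E0771, which derives from a mouse mammary tumour. All 6 samples were thus tumour-exposed, and the labels do not say whether each culture came from its own animal, so the p-values measure the spread between these samples.

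Each synthetase joins 1 amino acid to the tRNAs that carry it, and so supplies the ribosome with its substrates. The cytosolic enzymes serve translation of nuclear transcripts; several of them sit in a multisynthetase complex built on scaffold proteins. The mitochondrial enzymes are made from nuclear genes, carried into the organelle, and serve the few proteins that mitochondrial DNA encodes. In mammals, several genes for cytosolic synthetases are known targets of ATF4, the transcription factor of the amino acid starvation response, and the gene for cytosolic tryptophanyl-tRNA synthetase is known to be induced by interferon gamma.

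Values are log2 intensities, 1 per probe set and Affymetrix array, and the brightest probe set stood for its gene. The array medians lay between 5.60 and 5.64, and the precision of each value is limited by there being 3 arrays of each genotype. Fabp5, which encodes E-FABP, checked the labels: it read 8.13, 8.31 and 8.39 in knockout, against 14.47, 14.41 and 14.45 in wild type. A level can be compared between arrays for 1 probe set, but not between probe sets. In RNA from a whole culture, fewer cells of a type and less RNA per cell cannot be told apart.

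Most synthetases were slightly higher in the knockout cultures, and 1 passed the test. The mean was higher in knockout for 29 of 35 genes, 15 of 19 cytosolic and 14 of 16 mitochondrial, where the same held for 53.1% of all genes and for 62.4% of the 11285 genes above the median level of all values (5.63). The median difference, knockout minus wild type, was 0.17 for the cytosolic and 0.19 for the mitochondrial genes on the log2 scale, against 0.01 for all genes and 0.05 for those above the median level. By limma, with p-values adjusted after Benjamini and Hochberg across 45037 probe sets, Iars alone rose and 0 of 35 fell at an adjusted p under 0.05. That is 2.86% of the synthetases, against 2.85% of all genes that rose and 2.05% that fell. Among genes above the median level 4.32% rose, so the share that passed did not stand out from the background. At an unadjusted p under 0.05, 10 cytosolic and 7 mitochondrial genes were higher and 0 were lower, where 15.2% of all genes and 22.5% of genes above the median level were higher and 8.15% and 9.19% were lower. By this looser measure 48.6% of the synthetases were higher.

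**Figure D1:**
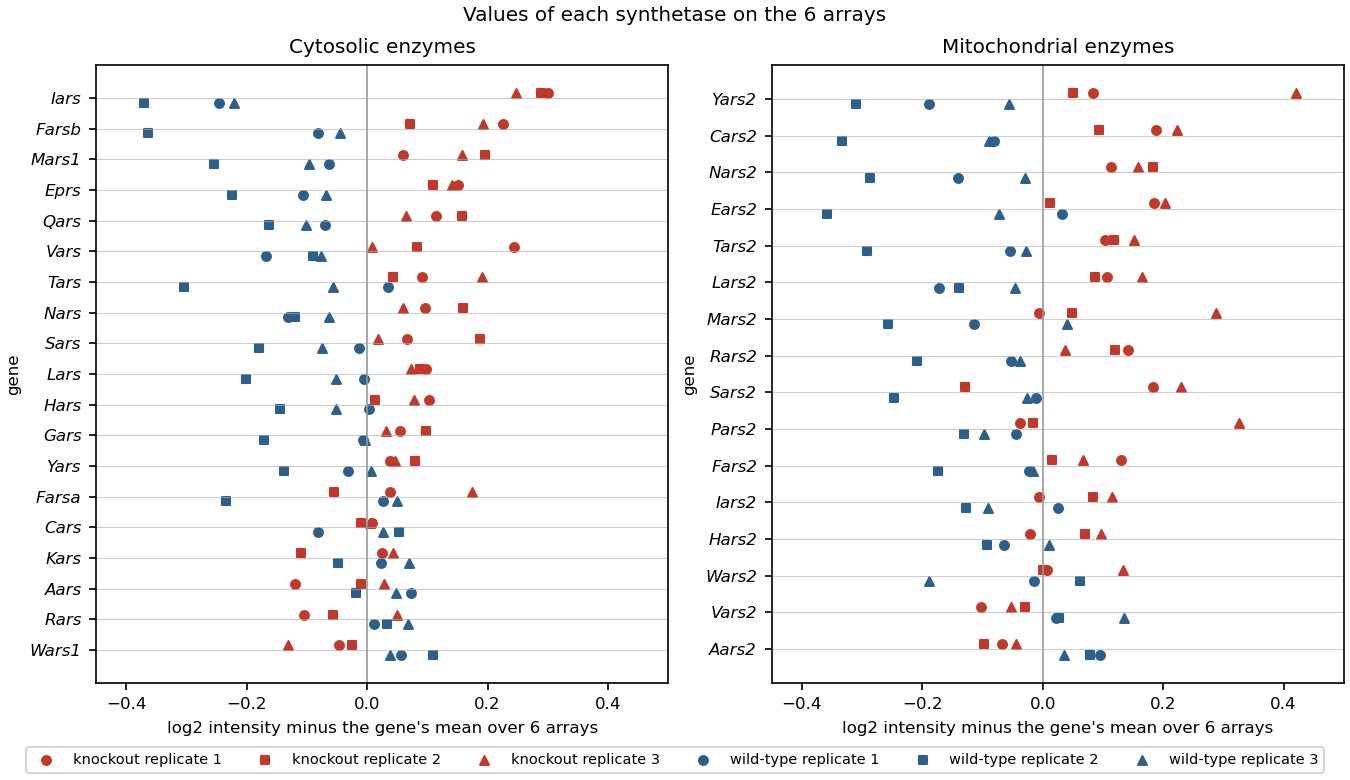
Log2 intensity of each measured synthetase on each array, minus the gene's mean over the 6 arrays (horizontal axis), with cytosolic genes on the left and mitochondrial genes on the right, ordered by their difference; red symbols are the 3 knockout and blue symbols the 3 wild-type replicates. Wild-type replicate 2, the blue squares, is the lowest array for 24 of the 35 genes.

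The 3 knockout values lay above the 3 wild-type values for 21 synthetases, 13 cytosolic and 8 mitochondrial, and below them for 3. Over all genes the shares were 20.7% above and 11.2% below. Over genes above the median level, to which 33 of the 35 synthetases belong, they were 30.7% above and 12.0% below. Individual arrays stood out among these genes. Wild-type replicate 2 was the lowest array for 24 of 35 synthetases (68.6%), against 24.9% of all genes, and knockout replicate 3 was the highest for 13 of 35 (37.1%), against 18.2% of all genes. Averaged over the synthetases, the deviation from each gene's mean was 0.07, 0.05 and 0.11 on knockout replicates 1, 2 and 3, and -0.04, -0.16 and -0.03 on wild-type replicates 1, 2 and 3. Without wild-type replicate 2, 29 of 35 means were still higher in knockout, the knockout values lay above the other wild-type values for 22 genes (24.8% of all genes), and the median difference was 0.13, where it was 0.18 over all arrays. After quantile normalization of the deposited values, 28 means were higher and the groups were apart in this direction for 14 genes, against 18.8% of all genes.

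**Figure D2:**
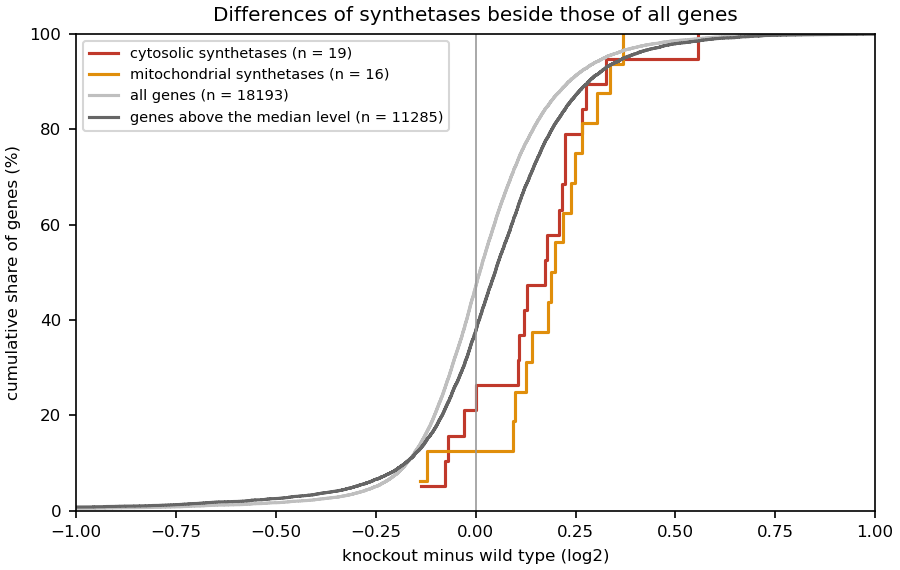
Cumulative share of genes (percent, vertical axis) with a difference up to the value on the horizontal axis (knockout minus wild type, log2), for cytosolic and mitochondrial synthetases, all genes and genes above the median level; differences beyond 1 in size are not drawn. Over most of the range both synthetase curves run to the right of the other curves, with medians of 0.17 and 0.19 against 0.01 and 0.05.

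Iars, which encodes cytosolic isoleucyl-tRNA synthetase, was the gene that rose. Its probe set read 9.82, 9.81 and 9.77 in knockout, against 9.28, 9.15 and 9.30 in wild type. The groups did not overlap, and the gap between them was wider than the whole spread within either. The mean was 9.80 ± 0.03 in knockout and 9.25 ± 0.08 in wild type (SD, n = 3 each), a difference of 0.56 (SE 0.07, 95% interval 0.40 to 0.71), or 1.47-fold (limma adjusted p = 0.0149). A second probe set read 8.99, 9.05 and 9.05 in knockout, against 8.43, 8.36 and 8.55 in wild type, a difference of 0.58 (limma adjusted p = 0.0155). Both probe sets thus gave nearly the same rise. The limma adjusted p was 0.0648 without knockout replicate 1, with a difference of 0.55, and it ranged from 0.0129 to 0.0464 when each other array was left out. It was 0.0570 when values under the 20th percentile (4.07) were set to that level.

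The promoters of the synthetases were searched for 4 motifs on both strands. Windows from 250 bases before to 50 bases after the start were found for 26 of the 35 genes in the RefSeq table of build GRCm38.p6, 12 cytosolic and 14 mitochondrial; Cars, Hars, Lars, Nars, Rars, Vars, Wars1, Hars2 and Pars2 were not matched. The C/EBP-ATF composite element TGATGNAAN, through which ATF4 and its partners act, was found in Aars, Gars, Iars, Tars and Yars, 5 of the 12 cytosolic genes and 0 of the 14 mitochondrial ones, and in 3.95% of all 32851 windows in that table. The E-box CACGTG, bound by Myc and related factors, was found in Aars, Farsb, Iars, Tars and the mitochondrial Ears2, and in 7.15% of all windows. The ETS motif CCGGAAG was found in 5 cytosolic and 4 mitochondrial genes and in 8.86% of all windows, and an interferon-stimulated response element in Qars and in 3.44%. The stretches that hold the composite elements are printed because they include that of Iars and those of genes that did not pass the test. Capitals mark the composite elements, most of which lie on the opposite strand, and the E-boxes; positions are counted from 1 at the start, with the base before it at -1. The Iars stretch covers positions -77 to 23 (chr13:49682053-49682152, plus strand), that of Aars -154 to 25 (chr8:111033688-111033866, plus strand), that of Tars -24 to 30 (chr15:11399629-11399682, minus strand), that of Gars -39 to -15 (chr6:55037962-55037986, plus strand) and that of Yars -5 to 20 (chr4:129189898-129189922, plus strand).
Iars: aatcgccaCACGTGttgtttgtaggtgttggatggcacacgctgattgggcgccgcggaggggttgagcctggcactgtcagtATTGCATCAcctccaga
Aars: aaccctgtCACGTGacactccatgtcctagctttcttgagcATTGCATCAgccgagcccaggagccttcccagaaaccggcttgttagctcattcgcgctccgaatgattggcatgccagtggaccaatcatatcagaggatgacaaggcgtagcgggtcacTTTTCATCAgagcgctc
Tars: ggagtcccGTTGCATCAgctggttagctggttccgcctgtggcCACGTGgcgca
Gars: gctgcgctATTTCATCAtgcaccgg
Yars: agctcagcTGATGCAACccgacggg

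Iars, Aars and Tars carry both a composite element and an E-box in these stretches, and their values did not move alike. Aars, for cytosolic alanyl-tRNA synthetase, holds 2 composite elements and read 9.51, 9.62 and 9.66 in knockout, against 9.70, 9.61 and 9.68 in wild type. Its groups overlapped, and the difference was -0.07 (95% interval -0.23 to 0.09, limma adjusted p = 0.645). Tars, for threonyl-tRNA synthetase, read 9.11, 9.06 and 9.21 in knockout, against 9.05, 8.71 and 8.96 in wild type. The difference was 0.22 (limma adjusted p = 0.242), and its lowest knockout value was close to its highest wild-type value. Without wild-type replicate 2 the difference was 0.12. Gars and Yars, for glycyl-tRNA and tyrosyl-tRNA synthetase, lay 0.12 and 0.11 above wild type (limma adjusted p = 0.389 and 0.415), with knockout values above all wild-type values in both. Each lay at 0.07 without wild-type replicate 2. The 5 genes with a composite element thus had differences from -0.07 to 0.56.

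**Figure D3:**
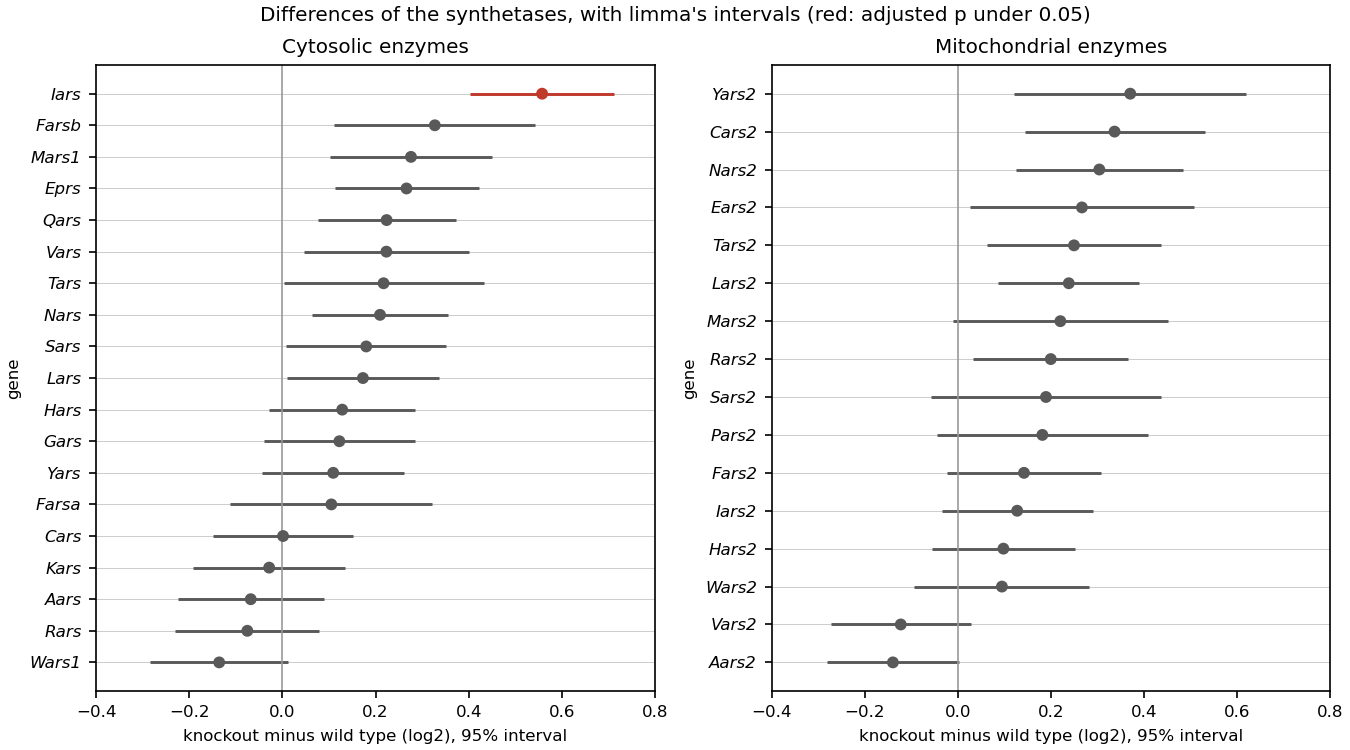
Difference of each synthetase (knockout minus wild type, log2, horizontal axis) with limma's 95% interval, which is not adjusted for the number of genes; cytosolic genes on the left, mitochondrial genes on the right, red where the adjusted p was under 0.05. Iars at 0.56 is the gene past the threshold, and the intervals of 10 cytosolic and 7 mitochondrial genes lie above 0.

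Of the 8 listed enzymes of the multisynthetase complex, 7 were measured (Eprs, Iars, Kars, Lars, Mars1, Qars and Rars), with a median difference of 0.22. Iars rose, 0 fell and 6 did not pass, and in 5 the knockout values lay above the wild-type values. All 7 were above the median level, where 4.32% of genes rose and 30.7% had knockout values above all wild-type values. Eprs, whose protein charges tRNAs for both glutamate and proline, read 10.07, 10.03 and 10.06 in knockout, against 9.81, 9.69 and 9.85 in wild type. Its difference was 0.27 (SE 0.07, limma adjusted p = 0.0663), and its 4 probe sets lay 0.23 to 0.29 above wild type, each with groups that did not overlap. Mars1, for methionyl-tRNA synthetase, which charges the initiator tRNA, read 9.04, 9.17 and 9.13 in knockout, against 8.91, 8.72 and 8.88 in wild type (difference 0.28, limma adjusted p = 0.0844). Qars, for glutaminyl-tRNA synthetase, read 10.18, 10.22 and 10.13 in knockout, against 10.00, 9.90 and 9.97 in wild type (difference 0.22, limma adjusted p = 0.0957). The 4 probe sets of Qars lay 0.07 to 0.22 above wild type, the dimmest with overlapping groups. By the brightest probe set, Eprs, Mars1 and Qars were each higher on every knockout array than on any wild-type array, without passing the adjusted threshold. Lars, for leucyl-tRNA synthetase, differed by 0.17 (limma adjusted p = 0.222), and by 0.115 without wild-type replicate 2. The complex was not uniform: Kars, for lysyl-tRNA synthetase, lay at -0.03 (95% interval -0.19 to 0.13) and Rars, for arginyl-tRNA synthetase, at -0.08 (95% interval -0.23 to 0.08), both with overlapping groups.

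The 12 cytosolic enzymes outside the complex had a median difference of 0.13, and 0 of 12 passed, with 5 higher at an unadjusted p under 0.05. All 12 were above the median level, where 4.32% of genes rose and 22.5% were higher at limma's unadjusted p under 0.05. Farsb, the beta subunit of phenylalanyl-tRNA synthetase, read 10.38, 10.23 and 10.35 in knockout, against 10.08, 9.79 and 10.11 in wild type. Its difference was 0.33 (SE 0.10, limma adjusted p = 0.0948), and its 4 probe sets lay 0.20 to 0.33 above wild type. Farsa, the alpha subunit of the same enzyme, read 7.49, 7.39 and 7.62 in knockout, against 7.47, 7.21 and 7.50 in wild type. Its groups overlapped, with a difference of 0.11 (95% interval -0.11 to 0.32) that was 0.01 when wild-type replicate 2 was left out and 0.04 when knockout replicate 3 was. Its probe sets did not share a sign; the difference between the subunits was not tested. Nars, for asparaginyl-tRNA synthetase, differed by 0.21 (limma adjusted p = 0.11), Vars, for valyl-tRNA synthetase, by 0.22 (limma adjusted p = 0.15) and Sars, for seryl-tRNA synthetase, by 0.18 (limma adjusted p = 0.228). In these genes too the knockout values lay above all wild-type values. The other probe set of Nars lay at 0.11 (limma adjusted p = 0.419). Hars, for histidyl-tRNA synthetase, lay at 0.13 (95% interval -0.03 to 0.28). Cars, for cysteinyl-tRNA synthetase, lay at 0.00 (95% interval -0.15 to 0.15), and its sign turned with the setting.

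Wars1, for cytosolic tryptophanyl-tRNA synthetase and named Wars on the array, was the lowest of the cytosolic genes. It read 8.63, 8.65 and 8.54 in knockout, against 8.73, 8.78 and 8.71 in wild type. Each knockout value was lower than every wild-type value, but the difference of -0.14 (SE 0.07, 95% interval -0.28 to 0.01) did not pass (limma adjusted p = 0.29). Of its 4 probe sets, 3 were lower in knockout and the dimmest lay 0.09 higher. The brightest probe sets of Farsb, Qars, Wars1 and Yars2 end in _x_at, the array's mark for probes that may also bind other transcripts.

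The enzymes fall into 2 classes by the fold of their catalytic domain. The 10 cytosolic class I genes had a median difference of 0.20 and the 9 class II genes 0.13, while the 9 mitochondrial class I genes had 0.22 and the 7 class II genes 0.18. The ranges ran from -0.14 to 0.56, from -0.07 to 0.33, from -0.12 to 0.37 and from -0.14 to 0.30 in that order, so that each class held genes on both sides of 0.

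None of the 16 mitochondrial synthetases passed limma's adjusted threshold, with 7 higher and 0 lower at an unadjusted p under 0.05. Yars2, for tyrosine, read 7.29, 7.25 and 7.62 in knockout, against 7.01, 6.89 and 7.15 in wild type, the difference with the greatest size among them at 0.37 (SE 0.11, limma adjusted p = 0.1). Its other probe set lay 0.34 above wild type. Knockout replicate 3 was its highest array, as it was for 11 of the 16 mitochondrial genes (68.8%), against 10.5% of the cytosolic genes and 18.2% of all genes. Cars2, for cysteine, read 7.07, 6.97 and 7.10 in knockout, against 6.80, 6.54 and 6.79 in wild type (difference 0.34, SE 0.09, limma adjusted p = 0.0642). Nars2, for asparagine, read 7.94, 8.01 and 7.99 in knockout, against 7.69, 7.54 and 7.80 in wild type (difference 0.30, SE 0.08, limma adjusted p = 0.0695). The groups of both genes did not overlap, and their dimmest probe sets, below the median level, lay at -0.06 and -0.02.

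Lars2, for leucine, read 7.85, 7.83 and 7.90 in knockout, against 7.57, 7.60 and 7.69 in wild type (difference 0.24, SE 0.07, limma adjusted p = 0.0875). Here wild-type replicate 1, and not replicate 2, was the lowest array; a dimmer probe set lay at -0.05. Tars2, for threonine, differed by 0.25 (limma adjusted p = 0.132) and Rars2, for arginine, by 0.20 (limma adjusted p = 0.169). In both, knockout values again lay above all wild-type values. Tars2 lay at 0.17 without wild-type replicate 2. The other probe set of Tars2 lay at 0.06, with overlapping groups (limma adjusted p = 0.678). Ears2, for glutamate, lay at 0.27 (limma adjusted p = 0.201), but its groups overlapped and its 4 probe sets ranged from -0.13 to 0.27. Without wild-type replicate 2 its difference was 0.15. Fars2, for phenylalanine, showed how far the choice of probe set can matter. Its brighter probe set read 7.92, 7.80 and 7.86 in knockout, against 7.77, 7.61 and 7.77 in wild type (difference 0.14, limma adjusted p = 0.32, and 0.09 without wild-type replicate 2). The dimmer one, marked _x_at, read 6.25, 6.23 and 6.19 in knockout, against 5.84, 5.74 and 5.79 in wild type, a difference of 0.43 that passed (SE 0.06, limma adjusted p = 0.0189).

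Of the other mitochondrial genes, 6 were higher on average and 2 were lower. Iars2, for isoleucine, lay at 0.13, Hars2, for histidine, at 0.10, Wars2, for tryptophan, at 0.09, Pars2, for proline, at 0.18, Mars2, for methionine, at 0.22 and Sars2, for serine, at 0.19, each with a 95% interval that held 0. In Pars2 the difference rested on knockout replicate 3, which read 6.75 where the other knockout arrays read 6.39 and 6.41 and the wild-type arrays 6.30 to 6.38; its difference of 0.18 was 0.06 without that array. Without knockout replicate 3, Mars2 lay at 0.13, Sars2 at 0.12 and Wars2 at 0.05. The brightest probe sets of Mars2 (3.67 ± 0.16 in knockout, 3.45 ± 0.15 in wild type) and Sars2 (4.17 ± 0.20 in knockout, 3.98 ± 0.13 in wild type; SD, n = 3 each) were below the median level. Every Mars2 value lay under the 20th percentile of all values (4.07), and its difference was 0 when values were set to that floor. Sars2 had values on both sides of that level. Aars2, for alanine, and Vars2, for valine, ran the other way, with lower means in knockout. Aars2 read 6.85, 6.82 and 6.88 in knockout, against 7.02, 7.00 and 6.96 in wild type (difference -0.14, SE 0.06, limma adjusted p = 0.252). Vars2 read 6.73, 6.80 and 6.77 in knockout, against 6.85, 6.85 and 6.96 in wild type (difference -0.12, SE 0.07, limma adjusted p = 0.349). In both genes each knockout value was lower than every wild-type value.

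For 13 amino acids the cytosolic and the mitochondrial gene could be paired by name. Phenylalanine, glutamate and proline were not paired, although enzymes of both kinds were measured. Farsa lay at 0.11 and Farsb at 0.33, beside Fars2 at 0.14. Eprs lay at 0.27, beside Ears2 at 0.27 and Pars2 at 0.18. Among the 13 pairs, both means were higher in knockout for 9, cysteine with Cars at 0.00 included. Both were lower for 1, alanine, while for 3 they ran opposite ways. These were arginine (Rars at -0.08, Rars2 at 0.20), tryptophan (Wars1 at -0.14, Wars2 at 0.09) and valine (Vars at 0.22, Vars2 at -0.12). The 9 pairs with both means higher include those of methionine and serine, whose mitochondrial probe sets were dim. Every Mars2 value lay under the 20th percentile of all values (4.07). For isoleucine, Iars lay at 0.56 and Iars2 at 0.13. Neither these distances between the enzymes of an amino acid nor that between the cytosolic and mitochondrial medians was tested.

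**Figure D4:**
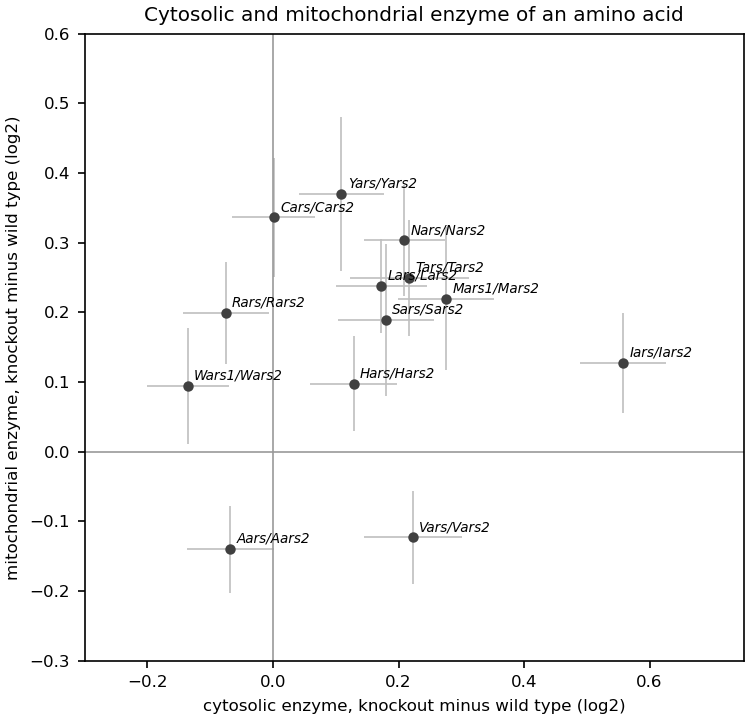
Difference (knockout minus wild type, log2) of the cytosolic enzyme (horizontal axis) and of the mitochondrial enzyme (vertical axis) for the 13 amino acids paired by gene name. Lines are limma's SE. Both differences are above 0 for 9 amino acids, and Iars stands furthest to the right at 0.56.

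The genes around the synthetases were read from 6 further lists. Of all genes, 2.85% rose and 2.05% fell, and 15.2% were higher and 8.15% lower at limma's unadjusted p under 0.05. Every measured gene of the first 4 lists below was above the median level. There 4.32% of genes rose, and 22.5% were higher and 9.19% lower at limma's unadjusted p under 0.05. In the list of scaffolds of the multisynthetase complex and of factors that edit mischarged tRNAs, with the synthetase-like Tarsl2, 0 of 8 passed and 7 were higher at an unadjusted p under 0.05 by limma, with a median of 0.22. Prorsd1, a gene of that list, lay at 0.31 (limma adjusted p = 0.0667) and the scaffold gene Aimp2 at 0.23 (limma adjusted p = 0.0859). Of 5 elongation factor genes measured, Eef1b2, which codes for an exchange factor of the protein that brings charged tRNA to the ribosome, rose by 0.32 (SE 0.06, limma adjusted p = 0.0334), 0 fell and 4 did not pass, and the median was 0.22. In the list of mitochondrial translation factors and tRNA-charging partners 0 of 12 passed and 8 were higher at an unadjusted p under 0.05, with a median of 0.19. Qrsl1, which codes for a subunit of the amidotransferase that makes glutaminyl-tRNA in mitochondria, lay at 0.40 (limma adjusted p = 0.0561), and the initiation factor gene Mtif2 at 0.22 (limma adjusted p = 0.138). In the list of mitochondrial tRNA processing and modification 0 of 12 passed and 7 were higher at an unadjusted p under 0.05, with a median of 0.17; Gtpbp3, which takes part in modifying the wobble base of mitochondrial tRNAs, lay at 0.29 (limma adjusted p = 0.0796) and Hsd17b10, for a subunit of mitochondrial RNase P, at 0.24 (limma adjusted p = 0.0907).

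The amino acid starvation list had a median of 0.04, with genes on both sides of 0, from -0.32 to 0.81. At an unadjusted p under 0.05 by limma, 5 of its genes were higher and 3 were lower. The lower ones, named after their values were seen, were Atf3, Ddit3 and Nupr1, stress-response genes at -0.29, -0.30 and -0.32, each with knockout values below all wild-type values. Of its 20 genes, Shmt2, a mitochondrial enzyme of serine and one-carbon metabolism, rose by 0.81 (SE 0.08, limma adjusted p = 0.00705) and Aldh18a1, which makes a precursor of proline, by 0.59 (SE 0.07, limma adjusted p = 0.0143), 0 fell and 18 did not pass. Atf4 itself read 11.45, 11.51 and 11.52 in knockout, against 11.52, 11.53 and 11.63 in wild type. Its groups overlapped (difference -0.07, 95% interval -0.22 to 0.08, limma adjusted p = 0.642). Among 16 amino acid transporter genes the sodium-coupled Slc38a2 (0.41, SE 0.07) and Slc38a1 (0.34, SE 0.08) rose and Slc15a3, a lysosomal carrier of histidine and peptides, fell by 0.31 (SE 0.07); their adjusted p from limma ran from 0.0217 to 0.0455, 13 did not pass and the median was -0.05. The transporters ran from -0.46 to 0.47, with limma's unadjusted p under 0.05 for 4 that were higher and 3 that were lower. Myc, a transcription factor that drives cell growth, rose by 0.39 (SE 0.08, limma adjusted p = 0.0329), reading 9.71, 9.56 and 9.61 in knockout, against 9.21, 9.15 and 9.35 in wild type.

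**Figure D5:**
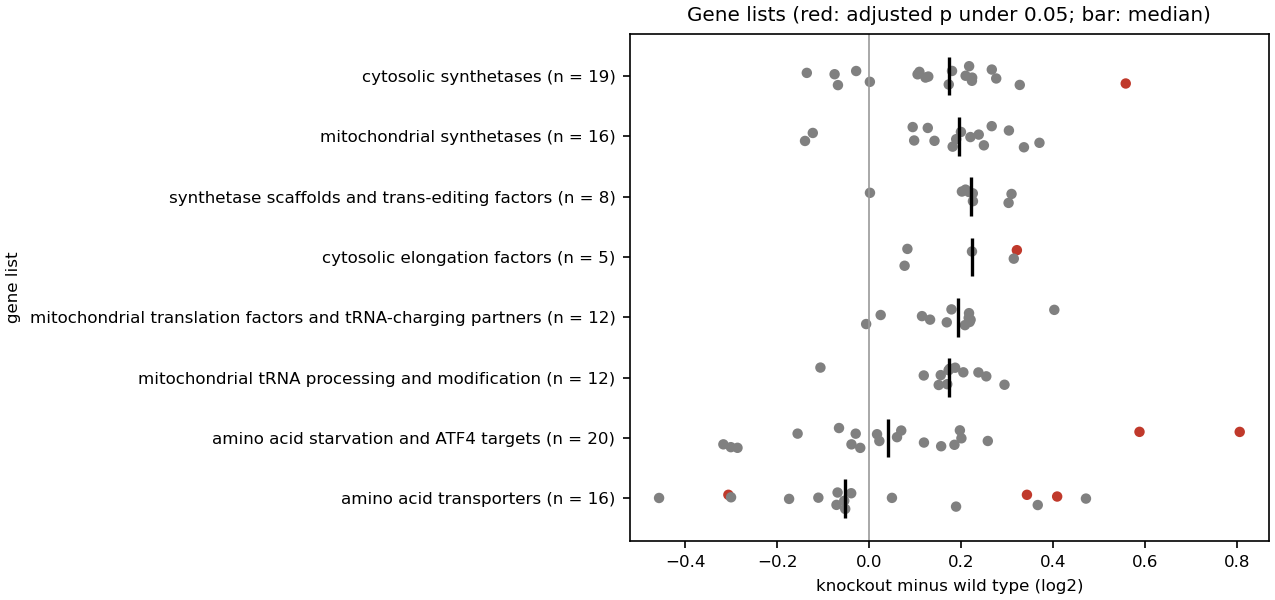
Difference of each gene (knockout minus wild type, log2, horizontal axis) in the synthetase lists and the 6 lists around them; black bars are medians, red points genes with an adjusted p under 0.05, and the vertical scatter within a list has no meaning. The synthetases and the 4 translation lists have medians of 0.17 to 0.22, and the starvation and transporter lists medians of 0.04 and -0.05.

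Markers of other cells moved on the same arrays, and their part in the synthetase differences was not tested. The same shares of all genes are the background of these counts, 2.05% that fell and 8.15% that were lower at an unadjusted p under 0.05 among them. Of 12 dendritic cell markers 1, Fscn1 (0.55, SE 0.12, limma adjusted p = 0.0458), rose and 0 fell, with a median of 0.35. At limma's unadjusted p under 0.05, 7 of them were higher and 0 were lower, against 15.2% and 8.15% of all genes. Averaged over these markers, knockout arrays deviated by 0.03 to 0.42 and wild-type arrays by -0.27 to -0.03. The brightest member, H2-Aa, lay at 0.10. Of 11 neutrophil markers 0 passed, although limma's unadjusted p was under 0.05 for 9 of them, 8 lower and 1 higher, and the median was -0.48; the knockout arrays deviated by -0.54 to 0.05 and the wild-type arrays by 0.09 to 0.34, and the brightest members S100a8 and Mmp8 lay at -0.53 and 0.16. Of 8 fibroblast markers 4 fell (Col1a2 by 1.29, Dcn by 1.10, Col3a1 by 0.48 and Acta2 by 0.38), with a median of -0.36. At limma's unadjusted p under 0.05, 7 were lower and 0 were higher. Only 4 of the 8 were above the median level, and Col3a1 was dim. It read 3.70 to 3.86 in knockout, under the 20th percentile of all values (4.07), and 4.16 to 4.38 in wild type. Averaged over these markers, the knockout arrays deviated by -0.33 to -0.21 and the wild-type arrays by 0.22 to 0.30. Acta2 and Pdgfra, which lay at -0.34, were the brightest. Of 9 macrophage markers 2 fell (Fcgr1 by 1.13 and Mertk by 0.46), with a median of -0.05. At limma's unadjusted p under 0.05, 2 were lower and 1 was higher. Averaged over these markers, the knockout arrays deviated by -0.19 to -0.01 and the wild-type arrays by 0.06 to 0.13. The brightest members of the macrophage list, Lyz2 and Csf1r, were bright in both groups. Lyz2 read 14.85 in knockout and 14.84 in wild type, and Csf1r 13.87 in knockout and 13.89 in wild type. Of 7 epithelial markers, which would mark E0771 cells, and of 7 T and B cell markers 0 passed in each, with 1 at an unadjusted p under 0.05 by limma in each and medians of -0.04 and -0.01. The brightest of these lay at 0.11 (Cdh1), -0.11 (Epcam), -0.01 (Cd4) and -0.16 (Cd3e). Apart from the brightest markers, the fallen genes are named here after their values were seen.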

How the data were processed

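The deposited table holds the authors' values of 6 arrays for 45101 probe sets, taken as log2 from their size. The submitters' processing notes name RMA, GCRMA 2.30.0, limma 3.14.4 and affy 1.36.1, without saying which step each did. Both GCRMA and RMA make the arrays' distributions alike, which would hide a change shared by most genes.

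After 64 control probe sets were left out, 45037 were tested without a filter in R 4.3.3, where limma 3.58.1 fitted genotype (lmFit, then eBayes) as knockout minus wild type, with a threshold of 0.05. SEs are limma's moderated ones. With 6 arrays the smallest two-sided p of an exact permutation test is 0.1. Symbols came from the platform's annotation, updated through a RefSeq table; 932 probe sets with several genes, 1 of them shared by Aars, were not named. Any synthetase could be named; from the other lists, genes past the threshold (at most 4) or otherwise those with the smallest p, from marker lists the brightest, and Fabp5, Atf4 and Myc. Members, lists and motifs were chosen with earlier results of these data known. The fit was also run on simulated arrays with independent noise for each probe set, and its outcome is not given here. Figures used matplotlib 3.10.9 in Python 3.11.15.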

Additional observations from a re-analysis of the deposited data

How the results depend on the processing

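The number of called probe sets, 1691, was 2692 with above-median probe sets only, 71 with a floor at the 20th percentile (4.07), 3126 with trend and robust settings, 92 with the replicate number as a block, 3775 at an adjusted p under 0.1, and 40 (without knockout replicate 1) to 1360 (without knockout replicate 3) when each array was left out. The number of cytosolic synthetases called, 1, was 4 with above-median probe sets only, 6 with trend and robust settings, 3 when a gene's probe sets were averaged, 5 at an adjusted p under 0.1, 0 with the floor, 0 with the replicate block, and 0 to 1 when each array was left out. The mitochondrial number, 0, was 3 with above-median probe sets only, 2 with trend and robust settings, 1 when probe sets were averaged, 3 at an adjusted p under 0.1 and 0 in the other settings, each array left out included. Iars was called in each setting except the floor, the replicate block and the fit without knockout replicate 1 (limma adjusted p = 0.0570, 0.0534 and 0.0648). The 2692 probe sets called in the above-median setting were out of 22508, and the other counts of called probe sets out of 45037. Averaging left 18193 genes, for which no count of all called genes is given here. Every synthetase called in a setting was higher in knockout. The number with a higher mean, 29, was 25 of 31 without _s_at, _x_at and _a_at probe sets and 27 of 33 with above-median probe sets only. It was 28 to 30 in the other settings, and the number without overlap, 21, was 14 to 24. Over all genes, the share with a higher mean was 51.8% to 62.4% in these settings. The share with knockout values above all wild-type values was 18.8% to 30.7%. Both counts of synthetases were chosen after seeing the data. Signs turned in 2 genes, neither past the threshold: Cars lay at -0.0487 after quantile normalization, -0.0664 when its probe sets were averaged and -0.0392 to 0.0282 when each array was left out, and Kars ranged from -0.06 to 0.0191, its highest value being without knockout replicate 2. Same-numbered replicates had deviations that correlated at -0.06, -0.04 and -0.13, and were no more alike than other pairs, at -0.05 to 0.11. The labels do not say whether the numbers pair the samples. With 3 arrays of each genotype, these values cannot settle it. The cause of these changes was not tested.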
